A study of Mus musculus with 6 samples.

Results

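The genes described here are the enzymes and transporters of glycolysis, the enzymes that bring pyruvate into mitochondria, and the enzymes of the tricarboxylic acid (TCA) cycle. They were chosen by name, as a fixed list of 36 genes, and 33 of them are listed among the 7171 loci of the table: 17 of 19 for glycolysis, 4 of 4 for pyruvate entry and 12 of 13 for the TCA cycle. Aldoc, Slc16a3 and Idh3g were not analysed here. The cells are C17.2, an established mouse multipotent neural stem cell line whose strain background is given as CD1 x C57BL/6, and the study is named for erythroblasts, neurogenesis and the dynamics of mitochondria. Control cells grew in DMEM/F12 with fetal bovine serum. A second group received heme, with no dose, duration or medium given in the sources used here. The third group was cultured for neural induction in Knockout DMEM with GlutaMAX, N2 supplement and brain-derived neurotrophic factor (BDNF) at 10 ng/ml. Every library comes from this 1 line, and 2 biological replicates are labelled in each of the 3 groups.

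Glycolysis splits glucose into pyruvate in the cytosol and yields a little ATP and NADH. Pyruvate is then either reduced to lactate by lactate dehydrogenase or carried into mitochondria, where the pyruvate dehydrogenase complex turns it into acetyl-CoA for the TCA cycle, whose NADH feeds the respiratory chain. Neural stem and progenitor cells are known for a strongly glycolytic metabolism, and neurons for a greater use of mitochondrial respiration.

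Values are FPKM, that is, fragments scaled by the length of the transcript and the mapped total of the library, summed over all listed transcripts of a locus, so levels of different genes can be compared per length. The 2 heme columns hold 1 set of measurements: replicate 2 is replicate 1 times a factor between 1.25 and 1.5 for each of 13963 transcripts, and 0 transcripts are listed at 0 in only 1 of the pair, against 1257 in only 1 of the control columns. Heme therefore stands for n = 1 library throughout. Mapped sequence came to 4.14 to 4.56 gigabases per library, of which 71.5% to 72.0% lies on the listed transcripts. Of the marker lists, 3 of 6 neural progenitor genes are listed (Nes, at 108 to 132 FPKM, Sox2 and Vim), 2 of 7 neuronal genes (Tubb3 and Map2), and 0 of 5 each for astrocytes, microglia and erythroid cells. Fibroblast or mesenchymal markers, 4 of 5 listed, were abundant, with Col1a1 at 807 to 1075 FPKM.

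The second control library differed from the rest. All 10 listed genes of the heme and NRF2 response were highest there, against 28.2% of all loci. Their median was 1.97 times control replicate 1 on the FPKM + 1 scale. Their summed level was 7876 FPKM in that library and 5639 in the other control, 6090.3 with heme, and 6575 and 5960.0 after induction. Hmox1, which degrades heme, was at 222 FPKM against 43.7 to 79.4 elsewhere. Of 9 proliferation genes 5 were lowest in control replicate 2 (55.6%, against 32.8% of all loci), with a summed level of 416 FPKM against 491 to 535 elsewhere. Mcm2 and Aurkb among them were 1.02 and 1.11 times control replicate 1. The 4 mesenchymal markers summed to 2035 FPKM against 2698 to 2921. These differences within the control group accompany most of the glycolysis values below, and their part in those values was not tested. In RNA from whole cultures, fewer cells of a type and less RNA per cell cannot be told apart.

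Glycolysis genes ranked among the most abundant loci of these cells. Pkm, the pyruvate kinase gene that makes the last ATP of glycolysis, held rank 34 among 7039 tested loci, Eno1 (enolase) rank 74, Ldha (lactate dehydrogenase A) rank 77, Pgk1 (phosphoglycerate kinase) rank 134 and Aldoa (aldolase A) rank 157. The most abundant TCA cycle gene was Mdh2, mitochondrial malate dehydrogenase, at rank 228, followed by Cs, citrate synthase, at rank 315. At the other end stood Ldhb, listed only through a short model, at rank 6353 and Pdk1 at rank 6309. In control replicate 1 the 17 glycolysis genes together had 4240.3 FPKM and the 16 genes of pyruvate entry and the TCA cycle 1104 FPKM.

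**Figure D1:**
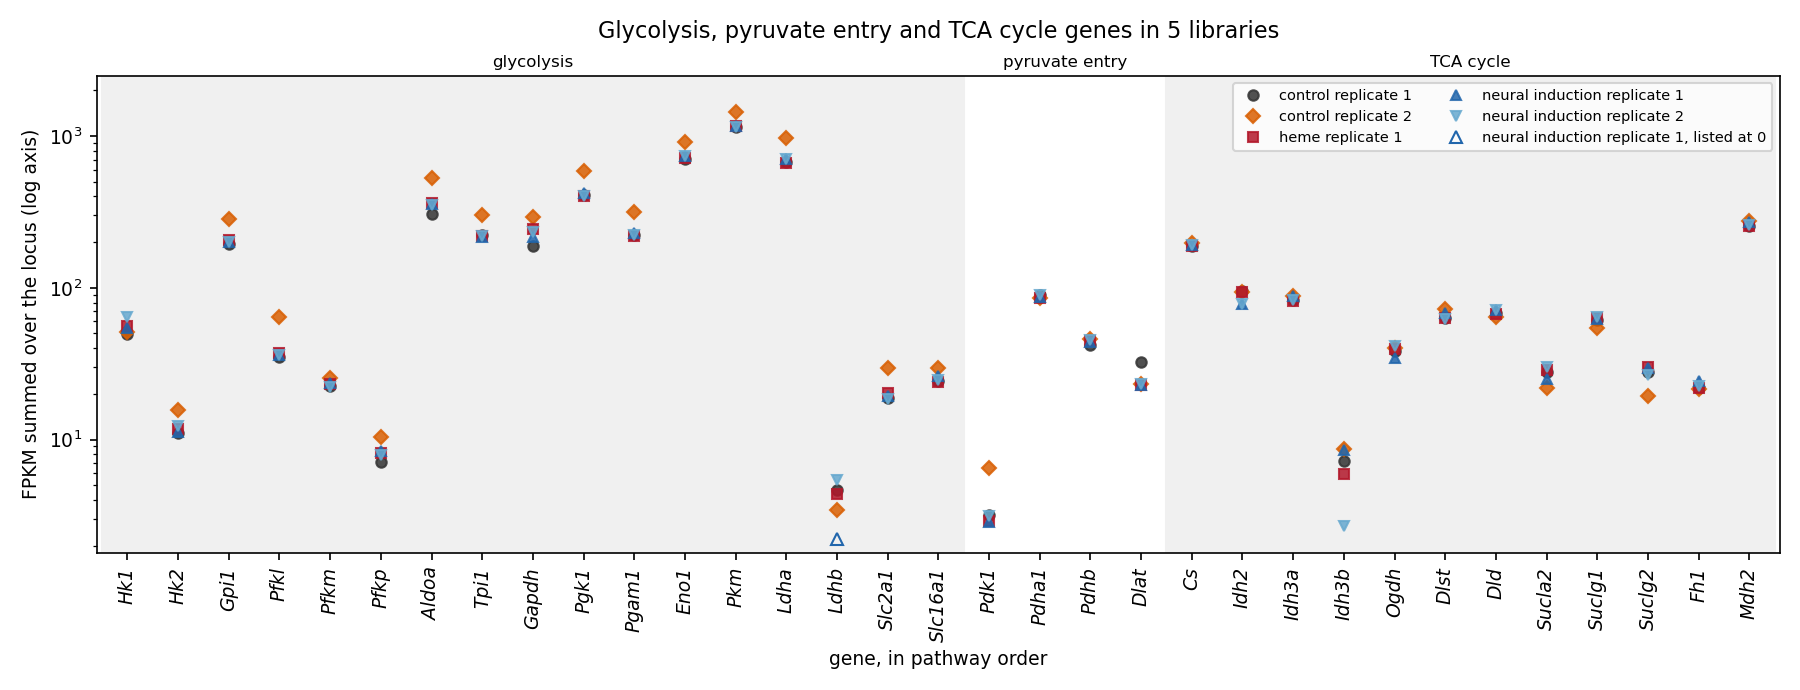
FPKM summed over the locus (log axis) of the 33 genes in pathway order, 1 point per library. Control replicate 2 (orange diamonds) lies above the other 4 libraries at 15 of 17 glycolysis genes, whereas the points of most TCA cycle genes fall together, and Ldhb is listed at 0 in neural induction replicate 1 (open triangle at the foot of the axis, not to scale).

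Entry of glucose depends on Slc2a1, the glucose transporter GLUT1, at chromosome 4, 119108711 to 119137983 (GRCm38). Values are given for replicates 1 and 2 in turn, and GLUT1 stood at 18.8 and 29.6 FPKM in control, 20.2 with heme, and 19.4 and 18.5 after induction. Control replicate 2 was thus the single high library, and the heme and induction values lay at or next to that of control replicate 1. Slc16a1, the monocarboxylate transporter MCT1 that moves lactate and pyruvate across the membrane, had 24.3 and 29.4 FPKM in the controls, 23.9 with heme, and 26.4 and 24.6 after induction.

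Hexokinases trap glucose as glucose 6-phosphate, and their 2 listed members behaved differently among the libraries. Hk1, the form bound to mitochondria in most tissues, was at 49.7 and 50.9 FPKM in control, 56.2 in the heme library, and 54.3 and 64.2 in the induction libraries, so that both controls lay below the other 3 libraries. Hk2, the inducible form, was at 11.0 and 15.6 FPKM in control, 11.8 with heme, and 11.1 and 12.3 after induction. Its share of the summed hexokinase FPKM was 23.4% in control replicate 2 and 16.1% to 18.1% in the other libraries.

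The steps from glucose 6-phosphate to triose phosphate held the widest gap between the controls. Gpi1, glucose phosphate isomerase, was at 195 and 284 FPKM in control, 207 with heme, and 199 and 202 after induction. The coding transcript Gpi1-201, with 18 exons, held 27.4% to 29.0% of this sum. It was at 55.5 and 80.8 FPKM in control and 55.5 to 57.7 FPKM elsewhere. Most of the rest lay in Gpi1-207 and Gpi1-205, models of 933 and 581 bases. Pfkl, the liver-type subunit of phosphofructokinase, the main regulated step of glycolysis, lies at chromosome 10, 77986947 to 78009807. It had 35.0 and 64.5 FPKM in control, 37.0 with heme, and 36.3 in each induction library. The 1.84-fold gap between its controls was the widest of the 17 glycolysis genes, while the other 4 values spanned 35.0 to 37.0 FPKM. The muscle-type Pfkm ranged over 22.1 to 25.3 FPKM and the platelet-type Pfkp over 7.10 to 10.4 FPKM in the 5 libraries. Pfkl made up 64.4% of the phosphofructokinase FPKM in control replicate 2, against 53.1% to 54.7% elsewhere.

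Aldolase A, which splits fructose 1,6-bisphosphate, is encoded by Aldoa at chromosome 7, 126795234 to 126808905. Its level was 308 and 528 FPKM in control, 362 with heme, and 359 and 352 after induction. Both controls thus lay outside the range of the other libraries, on opposite sides. Tpi1, triose phosphate isomerase, was at 221 and 302 FPKM in control, 219 with heme, and 216 and 218 after induction. That locus also holds Usp5 transcripts, a deubiquitinase gene, and the Tpi1 transcript alone was at 185 and 262, 181, and 180.4 and 181 FPKM in the same order.

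The pay-off steps, which make ATP and NADH, were also highest in control replicate 2, with the other libraries in no common order. Gapdh, at chromosome 6, 125161715 to 125166467, was at 187 and 294 FPKM in control, 246 with heme, and 217 and 232 after induction, so that here too the controls were the lowest and the highest library. Pgk1, at chromosome X, 106187100 to 106203699, was at 411 and 593 FPKM in control, 403 with heme, and 419 and 403 after induction. Pgam1, phosphoglycerate mutase, was at 222 and 317 FPKM in control, 221 with heme, and 229.6 and 223 after induction. Outside control replicate 2, Pgk1 spanned 403 to 419 FPKM and Pgam1 221 to 229.6 FPKM. Eno1 was at 705 and 910.1 FPKM in control, 716 with heme, and 739.9 and 736 after induction. Eno1b, a near-identical copy of Eno1, was listed at 40.0% to 40.8% of the Eno1 FPKM in every library, and how the counting split reads between them is not given, so the level of either is uncertain. The same holds for Gapdh, Pgk1, Pgam1 and Ldha, which have processed copies in the mouse genome.

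Pkm, at chromosome 9, 59656368 to 59679375, was at 1146 and 1449 FPKM in control, 1167 with heme, and 1159 and 1147 after induction. Ldha, which regenerates NAD+ by making lactate, was at 671 and 978 FPKM in control, 661 with heme, and 702 and 708 after induction. Ldhb, the form favouring lactate use, was at 4.67 and 3.41 FPKM in control, 4.39 with heme, and 0 and 5.38 after induction. Only 1 transcript model of Ldhb is listed, of 437 bases, so the value does not cover the whole gene. Ldha made up at least 99.2% of the summed lactate dehydrogenase FPKM in each library, a share subject to the same limit.

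Control replicate 2 was the highest library for 15 of the 17 glycolysis genes (88.2%), the exceptions being Hk1 and Ldhb. Over all loci tested it was the highest for 28.2%. Its FPKM + 1 was at least 1.2 times that of control replicate 1 for 14 of the 17, against 20.3% of all loci. The median of that ratio was 1.41 over the 17 genes and 0.993 over all loci. These counts describe 1 library and test no condition.

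**Figure D2:**
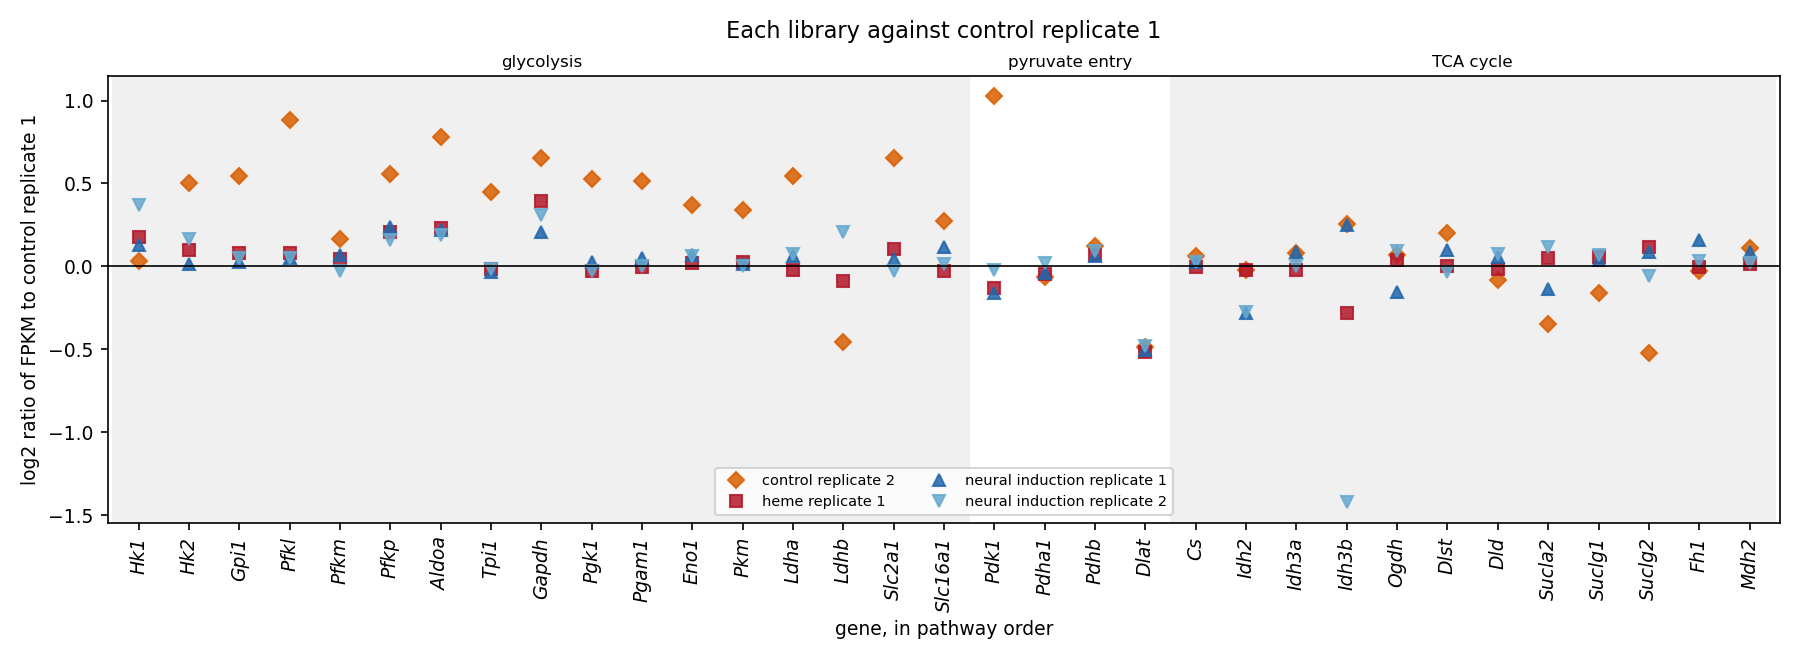
Log2 ratio of FPKM in each library to control replicate 1, per gene. At 15 of 17 glycolysis genes (not Hk1 or Ldhb) the orange diamonds of control replicate 2 sit above the other symbols, with Pfkl at 1.84-fold, while the heme and induction symbols stay near 0 for most genes; the low triangle at Idh3b is neural induction replicate 2, and the Ldhb value listed at 0 is not drawn.

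Pyruvate entry is set by the pyruvate dehydrogenase complex and its inhibitory kinases. Pdk1, the kinase that switches the complex off and a known target of hypoxia signalling, lies at chromosome 2, 71873224 to 71903858, and was at 3.20 and 6.52 FPKM in control, 2.92 with heme, and 2.86 and 3.15 after induction. Its control values differed 2.04-fold, the widest ratio of the 33 genes, and both treatments lay below both controls. The subunits of the complex itself did not share this pattern. Pdha1, the E1 alpha subunit, was at 89.1 and 85.1 FPKM in control, 86.2 with heme, and 86.5 and 90.2 after induction, and Pdhb, the E1 beta subunit, ranged over 42.3 to 46.0 FPKM.

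Dlat, the E2 subunit, was at 32.6 and 23.3 FPKM in control, 22.8 with heme, and 23.0 and 23.4 after induction. Here control replicate 1 was the single high library. A short non-coding model of 770 bases, Dlat-202, held 12.5 FPKM there and 0.470 to 1.30 FPKM elsewhere, while the full-length Dlat-201 was at 20.2 to 22.8 FPKM in all 5. With each FPKM multiplied by transcript length before summing, the controls differed 1.02-fold.

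Carbon enters the TCA cycle through Cs, at chromosome 10, 128337832 to 128362479. Its level was 188 and 196 FPKM in control, 187 with heme, and 191 and 192 after induction. Idh3a, a subunit of the NAD-dependent isocitrate dehydrogenase, was at 83.6 and 88.3 FPKM in control, 82.4 with heme, and 88.7 and 83.7 after induction. For both genes the heme value lay just below both controls, and the induction values lay within the range of the controls or next to it. Idh3b, another subunit, is listed through a single model of 452 bases that is annotated as a target of nonsense-mediated decay, and was at 7.20 and 8.60 FPKM in control, 5.93 with heme, and 8.57 and 2.69 after induction.

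Idh2, the mitochondrial NADP-dependent isocitrate dehydrogenase, lies at chromosome 7, 80094846 to 80115392. It was at 94.7 and 93.3 FPKM in control, 93.2 with heme, and 78.0 and 78.2 after induction, so that both induction libraries lay below the other 3. An unnamed short transcript of 1063 bases held 38.9 and 53.7 FPKM in control and 43.0 with heme and was listed at 0 in both induction libraries. The coding Idh2-201 was at 52.4 and 3.86 FPKM in control, 46.8 with heme, and 71.9 and 73.6 after induction. Idh2-204, annotated as a target of nonsense-mediated decay, was at 32.7 FPKM in control replicate 2 and 0 to 0.361 FPKM elsewhere. With FPKM multiplied by transcript length before summing, the log2 difference between induction and control was 0.02 in place of -0.26, and over the transcripts that carry the gene name it was 0.72. The direction at this locus therefore depends on how its transcripts are added.

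The 2-oxoglutarate dehydrogenase complex comes next in the cycle. Ogdh, its E1 subunit, ranged over 34.6 to 41.1 FPKM with all transcripts of the locus. Over the transcripts that carry its name it was at 6.21 FPKM in neural induction replicate 1 and 36.5 to 41.0 FPKM elsewhere, and the log2 difference between induction and control was -1.21 in place of -0.06. Dlst, the E2 subunit, was at 63.4 and 72.8 FPKM in control, 63.5 with heme, and 67.7 and 62.0 after induction. Dld, the E3 subunit shared with pyruvate dehydrogenase, was at 68.2 and 64.3 FPKM in control, 67.4 with heme, and 71.0 and 71.8 after induction. Fumarase, Fh1, was at 21.9 and 21.5 FPKM in control, 21.8 with heme, and 24.5 and 22.4 after induction. For Ogdh, then, the level in 1 induction library depends on an unnamed model. Mdh2 was at 255 and 275 FPKM in control, 257 with heme, and 271 and 258 after induction.

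All 3 listed subunits of succinyl-CoA ligase were lowest in control replicate 2. Suclg1, the alpha subunit, was at 60.9 and 54.6 FPKM in control, 63.3 with heme, and 62.7 and 63.9 after induction. Of the beta subunits, Suclg2, which makes the GTP-forming enzyme, was at 27.9 and 19.4 FPKM in control, 30.2 with heme, and 29.5 and 26.7 after induction. Sucla2, of the ATP-forming enzyme, ranged over 21.8 to 30.0 FPKM, with its lowest value also in control replicate 2. For Sucla2 and Suclg2, and for no other of the 12 TCA cycle genes, FPKM + 1 in control replicate 2 was at most 1 over 1.2 of control replicate 1, a size reached by 21.4% of all loci. None of the 12 was 1.2-fold or more above, and control replicate 2 was the highest library for 4 of 12 and the lowest for 5, against 28.2% and 32.8% of all loci.

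Summed over the groups, glycolysis stood at 4240.3 and 5884 FPKM in control, 4386 with heme, and 4421 and 4412 after induction. The sum over pyruvate entry and the TCA cycle was 1104 and 1117 FPKM in control, 1097 with heme, and 1109 and 1094 after induction. The ratio of glycolysis to mitochondrial FPKM was accordingly 3.84 in control replicate 1, 5.27 in control replicate 2, 4.0 with heme, and 3.99 and 4.03 after induction. Control replicate 2 was the only library apart from the rest on this measure, since the other 4 spanned 3.84 to 4.03. The gap between the controls in summed FPKM was 1.54-fold for the steps from Gpi1 to Tpi1, 1.33-fold from Gapdh to Pkm, 1.45-fold for lactate dehydrogenase, 1.37-fold for the transporters and 1.09-fold for the hexokinases. As a share of all listed FPKM, glycolysis took 1.43% in control replicate 2 and 1.06% to 1.11% elsewhere, and pyruvate entry with the TCA cycle 0.271% to 0.277% in all 5. Against the control mean of 5062 ± 1163 FPKM (SD, n = 2), glycolysis was 0.866-fold with heme and 0.872-fold after induction, where the mean was 4416 ± 6.33 FPKM (SD, n = 2). Against control replicate 1 alone, the same ratios were 1.03 with heme and 1.04 in each induction library, the opposite direction.

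**Figure D3:**
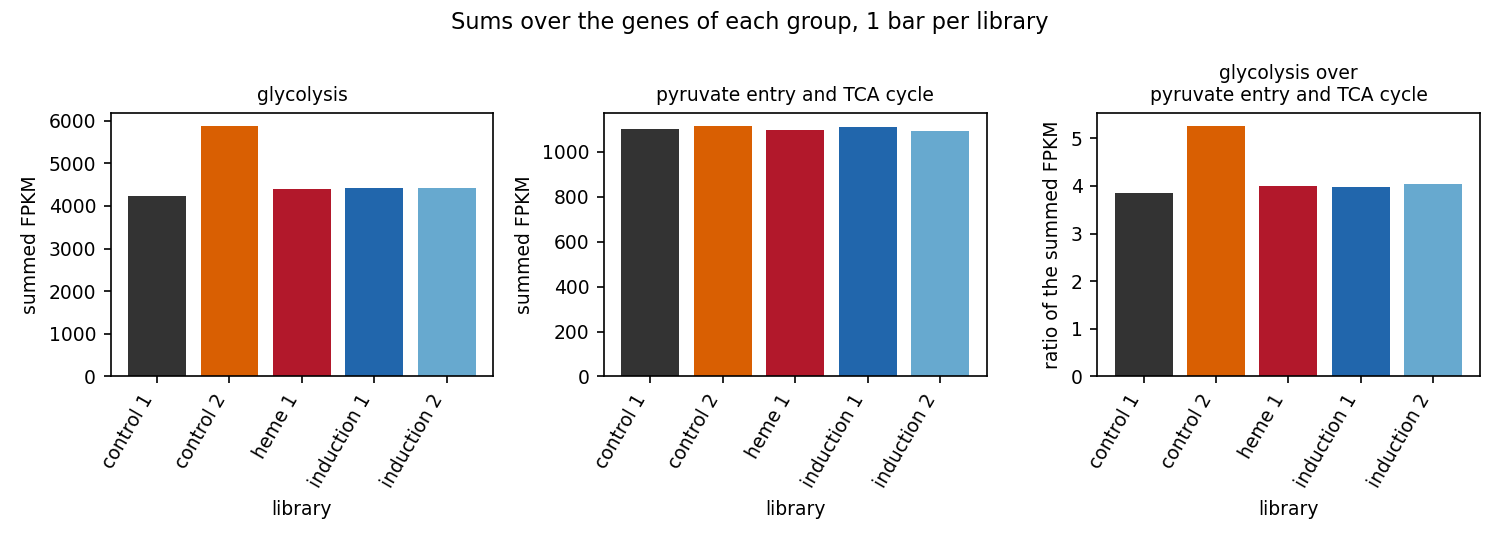
Summed FPKM of the 17 glycolysis genes, of the 16 genes of pyruvate entry and the TCA cycle, and the ratio of these sums, 1 bar per library. The glycolysis bar of control replicate 2 reaches 5884 FPKM and the other 4 end between 4240.3 and 4421, while the mitochondrial bars end between 1094 and 1117.

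Heme was compared with control to ask whether it changes the expression of these enzymes. In limma, fitted across all 7039 loci with Benjamini-Hochberg adjustment, 0 of 33 members passed an adjusted p of 0.05, and 0 passed an unadjusted p of 0.05. Of all loci 0.0426% passed, with 253 at an unadjusted p below 0.05. The fit takes the spread of the single heme library from the other groups. The largest log2 fold changes of FPKM + 1 belonged to Pdk1 (-0.52 ± 0.47, SE), Suclg2 (0.36 ± 0.24), Idh3b (-0.36 ± 0.61) and Pfkl (-0.36 ± 0.37). Ldha (-0.29 ± 0.24), Pgk1 (-0.29 ± 0.23), Dlat (-0.26 ± 0.22), Pgam1 (-0.26 ± 0.22), Tpi1 (-0.24 ± 0.20) and Slc2a1 (-0.22 ± 0.28) followed. The smallest adjusted p of the 33 was 0.998.

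Without control replicate 2, 9 of these 10 heme values moved towards 0 or past it, for example to -0.10 for Pdk1, 0.11 for Suclg2, 0.08 for Pfkl, -0.02 for Ldha and 0.10 for Slc2a1. Dlat, whose high library was the other control, moved away from 0 to -0.50. The value of Suclg2 also depended on how its transcripts were added: it was 0.08 with FPKM multiplied by transcript length and 3.08 for a single transcript. The heme library lay below both controls for 11 of 33 members, against 31.1% of all loci, and above both for 4 of 33, against 25.5%. Those above were Hk1, Sucla2, Suclg1 and Suclg2. The 95% confidence interval of the log2 fold change was -0.57 to 0.29 for Pkm and -0.92 to 0.33 for Ldha. It was narrower for some mitochondrial genes, at -0.24 to 0.17 for Cs, -0.29 to 0.20 for Mdh2 and -0.25 to 0.22 for Pdha1. For others it was wider than for Pkm, at -0.85 to 0.33 for Dlat and -1.99 to 1.28 for Idh3b. Among glycolysis genes, Hk1 had a narrower one than Pkm, at -0.19 to 0.51. The median over the 33 was -0.07 and over all loci -0.0035.

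Neural induction was compared with control in the same fit, for the same question. Again 0 of 33 members passed, with 0.0142% of all loci passing, and 1 member (Idh2) among 215 loci at an unadjusted p below 0.05. Idh2 had a log2 fold change of -0.26 ± 0.066 (SE) and an adjusted p of 0.935 in limma, with the dependence on transcript models described above. Ldhb, listed at 0 in 1 induction library, had -0.99 ± 0.95, Idh3b -0.58 ± 0.50, Pdk1 -0.49 ± 0.38, Pfkl -0.38 ± 0.30 and Slc2a1 -0.30 ± 0.23. For Pgk1 (-0.26 ± 0.19), Suclg2 (0.26 ± 0.19), Tpi1 (-0.25 ± 0.16) and Dlat (-0.24 ± 0.18) the changes were smaller.

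Leaving out control replicate 2 gave 0.05 for Pfkl, 0.01 for Slc2a1, 0.07 for Ldha and -0.07 for Pdk1. Pgk1, Suclg2 and Tpi1 also came near 0, at 0.00078, 0.01 and -0.03. The values of Ldhb (-1.17), Dlat (-0.48), Idh3b (-0.47) and Idh2 (-0.27) did not. Both induction libraries lay above both controls for 4 of 33 members (Hk1, Dld, Suclg1 and Fh1), against 18.2% of all loci, and below for 3 of 33 (Tpi1, Pdk1 and Idh2), against 13.0%. In locus sums, Hk1 and Suclg1 stood above both controls in each treatment. This did not hold for Hk1-202, at 50.9 FPKM in control replicate 2 and 38.1 in induction replicate 2, or for Suclg1-201 alone. The log2 fold changes of the Hk1 and Suclg1 sums were 0.16 ± 0.13 and 0.13 ± 0.11 with heme. After induction they were 0.23 ± 0.11 and 0.13 ± 0.088. The 95% confidence interval after induction was -0.17 to 0.17 for Cs, -0.20 to 0.20 for Mdh2 and -0.51 to 0.19 for Pkm. Both comparisons with control share the same control libraries, so a like direction in the pair is not separate evidence.

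**Figure D4:**
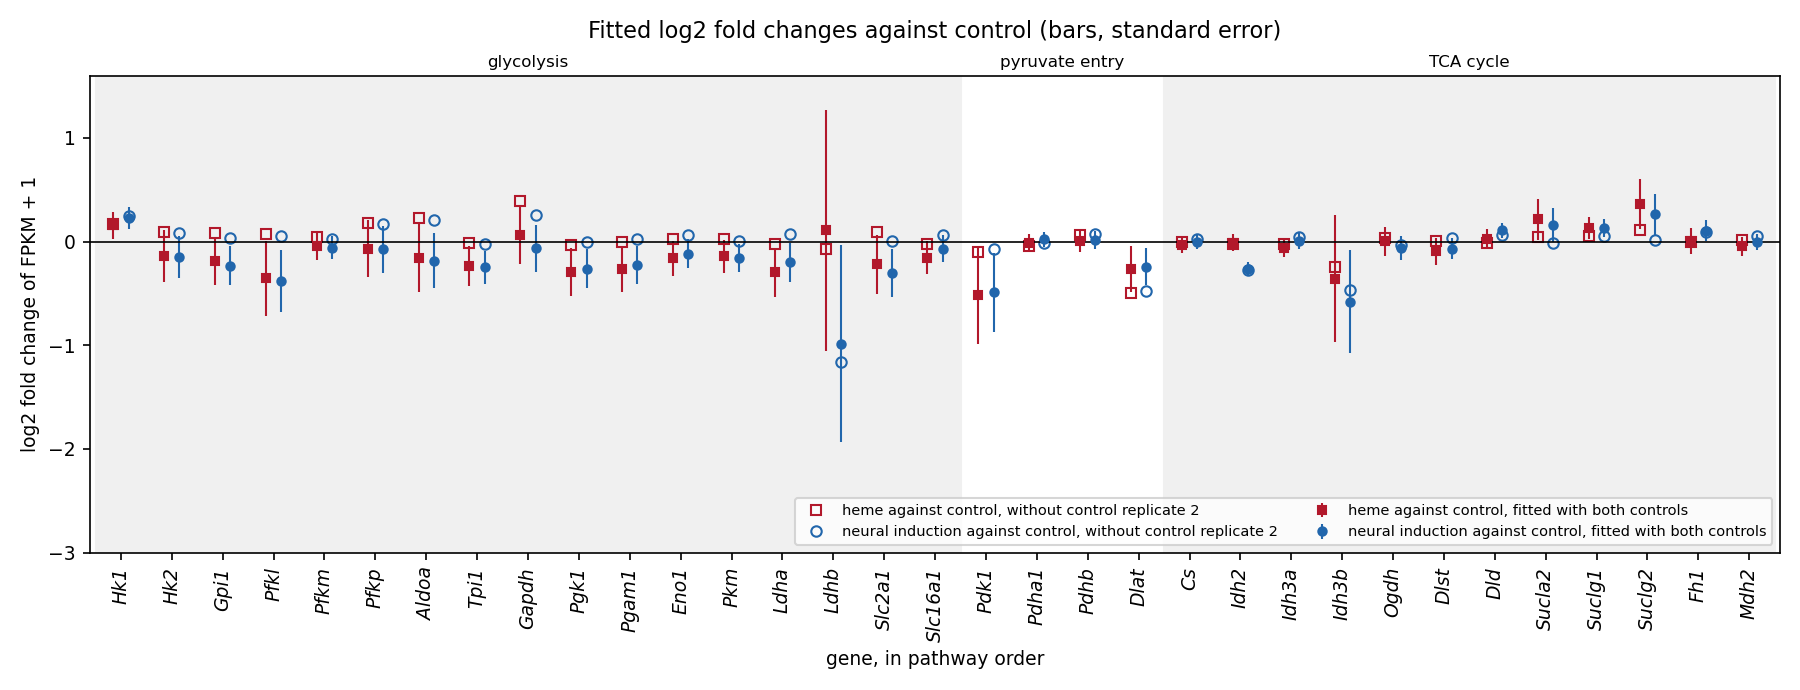
Log2 fold changes of FPKM + 1 against control from limma, with standard errors, for heme (red squares) and neural induction (blue circles); open symbols leave out control replicate 2. At most glycolysis genes the filled symbols lie below 0 and the open ones near or above it, as for Pfkl (-0.36 and 0.08 with heme), and none of the 33 genes passed the test.

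Heme and neural induction were compared directly as well, which does not use the control libraries except for the estimate of spread. Of the 33 members 0 passed in limma, with 0.0568% of all loci passing, and 1 member (Idh2) among 238 loci at an unadjusted p below 0.05. The log2 difference, heme over induction, was 1.09 ± 1.16 (SE) for Ldhb, 0.25 ± 0.080 for Idh2, 0.22 ± 0.61 for Idh3b and 0.13 ± 0.28 for Gapdh. It was 0.10 ± 0.24 for Suclg2, -0.10 ± 0.13 for Fh1, -0.09 ± 0.24 for Ldha, -0.09 ± 0.16 for Slc16a1, 0.09 ± 0.28 for Slc2a1 and -0.08 ± 0.090 for Dld. The heme library lay above both induction libraries for 9 of 33 members, against 27.3% of all loci, and below both for 12, against 40.3%.

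The forms of pyruvate kinase can be told apart in these files. Pkm transcripts carry either of 2 mutually exclusive exons of 167 bases, and the form with the downstream one, PKM2, is the form known from proliferating and embryonic cells, whereas PKM1 is known from adult muscle and brain. The exons are printed because they alone separate the 2 listed transcripts; capitals mark the 64 positions at which they differ, leaving 61.7% identical. Both are on the plus strand of GRCm38, at chr9:59675568-59675734 in Pkm-201 (PKM2) and at chr9:59675029-59675195 in Pkm-202 (PKM1), and come from the GENCODE M21 transcripts.
PKM2 exon: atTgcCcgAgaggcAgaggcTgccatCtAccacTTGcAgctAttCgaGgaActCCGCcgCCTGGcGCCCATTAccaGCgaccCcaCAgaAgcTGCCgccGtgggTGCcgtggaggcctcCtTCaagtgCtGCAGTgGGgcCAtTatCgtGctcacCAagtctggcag
PKM1 exon: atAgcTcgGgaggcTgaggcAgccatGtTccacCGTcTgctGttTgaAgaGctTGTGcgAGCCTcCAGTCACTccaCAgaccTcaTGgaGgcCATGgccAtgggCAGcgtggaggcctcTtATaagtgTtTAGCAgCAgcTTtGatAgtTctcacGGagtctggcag
The PKM2 transcript was at 986 and 1251 FPKM in control, 1004 with heme, and 1005 and 981 after induction. The PKM1 transcript was at 160.2 and 198 FPKM in control, 163 with heme, and 154 and 166 after induction. PKM2 thus made up 86.0% and 86.4% of the locus in control, 86.0% with heme, and 86.7% and 85.5% after induction. This share moved by 1.17 percentage points across libraries whose Pkm level differed 1.26-fold.

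Other members split between transcript models unevenly from library to library. Of the 33 genes 13 have 1 listed transcript and 20 have 2 or more, 87 transcripts in all, of which 79 carry an Ensembl identifier. The transcript with the most FPKM was the same in all 5 libraries for 14 of the 20, and differed for Gpi1, Pfkp, Gapdh, Idh2, Ogdh and Suclg2. It differed between the control replicates for 3 genes and between the induction replicates for 3, so replicates of 1 group differed in this as well. Whether such splits lie in the cells or in the assignment of reads to overlapping models was not tested.

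Pgk1 is the clearest case. The coding transcript Pgk1-201 was at 409 and 588 FPKM in control, 207 with heme, and 211 and 402 after induction. Pgk1-203, annotated as a target of nonsense-mediated decay, was at 0.0297 and 0.0125 FPKM in control, 193 with heme, and 205 and 0 after induction. Each model has 11 exons. They differ in the outer ends of exons 1 and 11 and, inside, in the start of exon 8, which is 220 bases long in Pgk1-203 and 180 in Pgk1-201. Pgk1-203 therefore took 47.8% of the locus in the heme library, 48.9% in induction replicate 1 and under 0.01% in the other 3, while the locus sum stayed at 403 to 419 FPKM outside control replicate 2.

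Suclg2 was divided in the same libraries. Suclg2-204, with the upstream first exon, held 63.9% and 100% of the locus in control, 10.2% with heme, and 14.2% and 73.0% after induction, and Suclg2-201 the rest. At Ogdh, the transcript Ogdh-204 held 74.4% and 95.8% in control, 88.2% with heme, and 0.117% and 95.1% after induction. An unnamed model with 23 exons held 82.0% in induction replicate 1 instead. For these 3 genes, then, the induction replicates went apart.

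In Aldoa, Gapdh and Hk1 the controls went apart. Aldoa-202, which has an extra second exon of 153 bases, held 12.5% and 38.4% of the locus in control and 35.8% to 37.0% in the other 3 libraries. Gapdh-201 was listed at 0 in control replicate 1 and held 45.5% in control replicate 2, 53.9% with heme, and 30.7% and 41.6% after induction, with Gapdh-203, which starts at another first exon, taking most of the rest. Hk1-201 was at 13.7 FPKM in control replicate 1 and listed at 0 in the other 4 libraries. Hk1 was split in neural induction replicate 2 as well, where Hk1-205 held 40.7% of the locus, against 0% to 8.17% elsewhere. Control replicate 1 thus stood apart in all 3 genes, and for Hk1 it was not the only such library. Control replicate 2 stood apart at Idh2, where Idh2-204 held 35.1% of the locus, against 0% to 0.462% elsewhere. Idh2-201 held 55.4% and 4.14% in control, 50.2% with heme, and 92.3% and 94.1% after induction. At Pfkp, Pfkp-206 held 42.6% in control replicate 2 and 0.925% to 4.45% elsewhere. Pfkp-201 held 72.1% in the heme library and 0% to 0.0569% elsewhere.

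**Figure D5:**
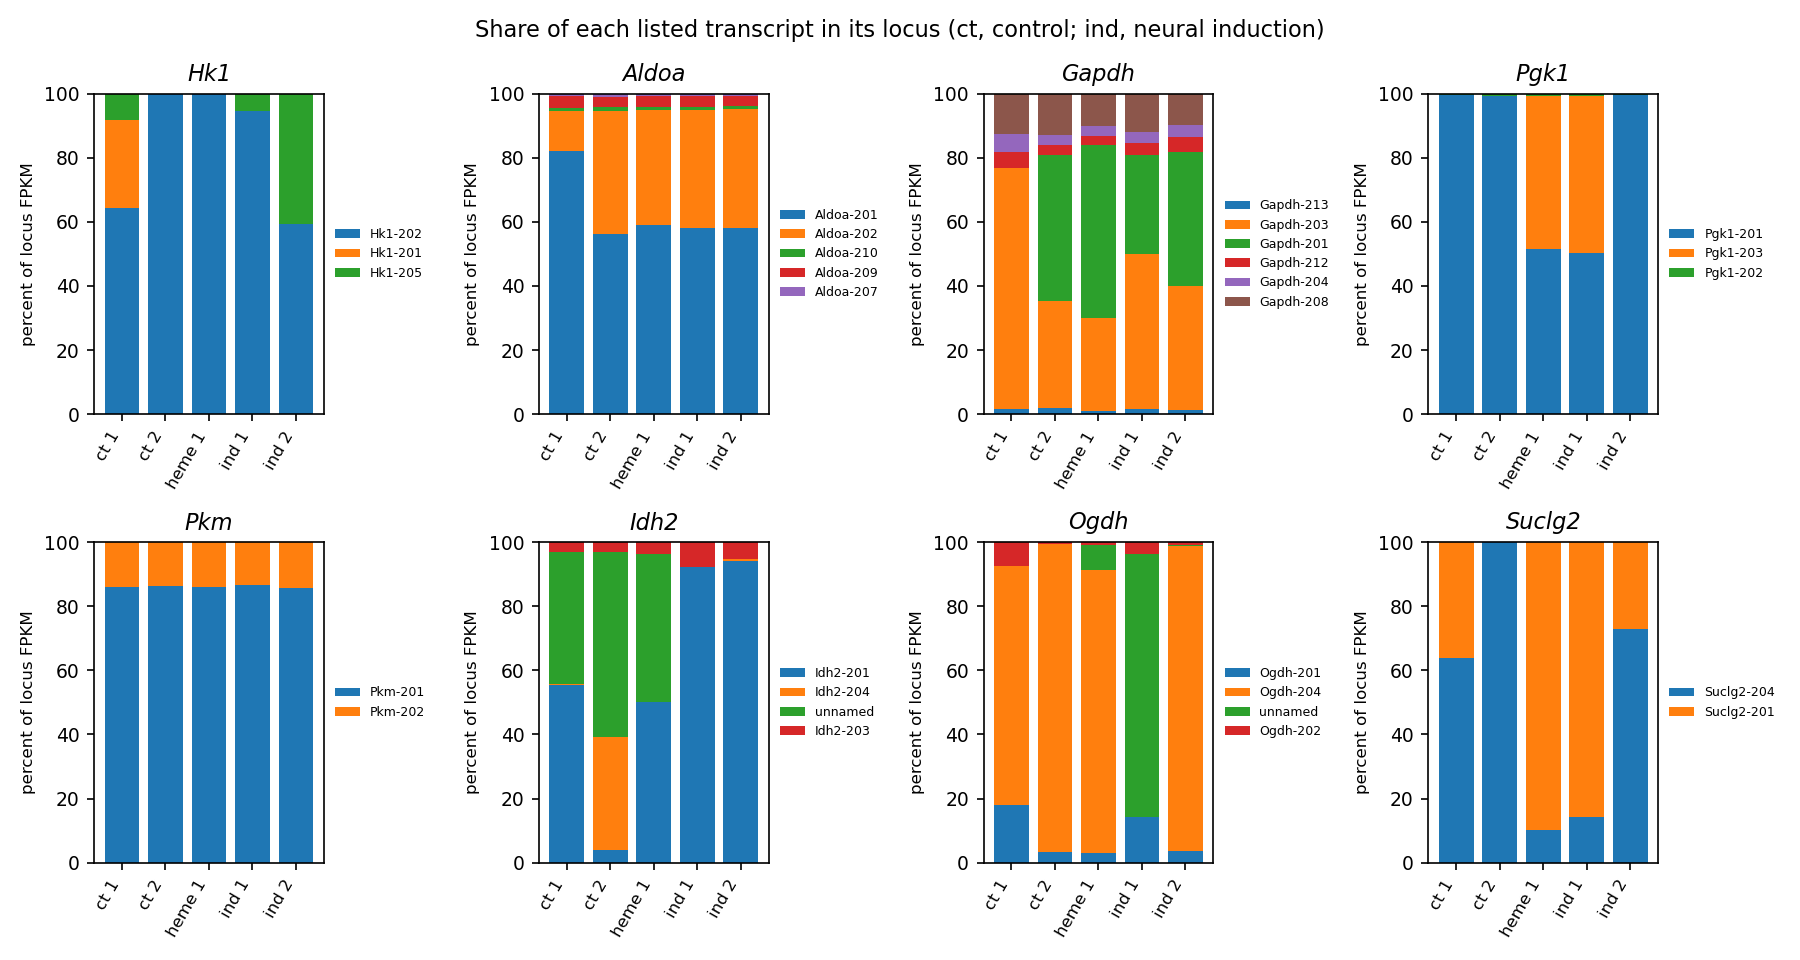
Percent of the locus FPKM held by each listed transcript of 8 genes, 1 stacked bar per library (ct, control; ind, neural induction). The Pkm bars are alike in all libraries, with Pkm-201 at 85.5% to 86.7%, while Pgk1-203 is visible only in heme replicate 1 (47.8%) and induction replicate 1 (48.9%) and the Aldoa and Gapdh bars of control replicate 1 differ from the other 4.

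These splits are what the authors' deposited table of fold changes holds for these genes. Of 76 member transcripts in the authors' deposited table for heme, 8 in 6 genes had an adjusted p below 0.05 (10.5%), against 7.24% of all transcripts. The authors' deposited table for neural induction likewise had 8 of 76, in 7 genes, against 7.20%. The transcript with the smallest p in each was Pgk1-203, with a log2 fold change of 10.3 for heme and 10.4 for neural induction in the authors' deposited table. For all 62 member transcripts above 1 FPKM in both libraries, the heme fold change of the authors' deposited table matched heme replicate 1 over control replicate 1 within 0.1 on the log2 scale. The same held for all 63 in the authors' deposited table for neural induction, against the ratio of the first replicates. Those tables therefore set single libraries side by side. Over the 5 libraries, limma on single transcripts called 0 of 72 member transcripts in either comparison, with 2 (heme) and 1 (induction) at an unadjusted p below 0.05. Of all 13737 transcripts in that limma fit, 10 (heme) and 1 (induction) were called, with 680 and 684 at an unadjusted p below 0.05. Hk1-201, found in 1 library, was not among those tested.

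Genes of the same and neighbouring pathways were read from lists alongside the members. None of them passed in any of the 3 comparisons. Of 27 further glycolysis genes (paralogs, regulators and transport) 10 are listed, control replicate 2 was highest for 3 of the 10, and their median ratio between the controls was 0.991. Of 36 further genes of pyruvate and TCA metabolism 25 are listed, with control replicate 2 highest for 8 and a median ratio of 1.03. The pentose phosphate pathway, which branches off at glucose 6-phosphate, has 6 of 9 genes listed, 4 of them highest in control replicate 2 and a median ratio of 1.16. In this group Pgd, which makes NADPH and is also known as an NRF2 target, was at 95.02 and 160.5 FPKM in control, 93.8 with heme, and 110 and 98.3 after induction.

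Of 28 hypoxia-response genes outside glycolysis 18 are listed. Control replicate 2 was the highest library for 10 of the 18 (55.6%, against 28.2% of all loci) and the lowest for 6 (33.3%, against 32.8%). It was at least 1.2-fold above control replicate 1 for 9 of them (50%, against 20.3%) and at least 1.2-fold below for 3 (16.7%, against 21.4%), with a median ratio of 1.19. Bnip3, a mitophagy receptor, was at 24.4 and 56.2 FPKM in control, 26.0 with heme, and 23.6 and 25.2 after induction. P4ha2, a collagen prolyl hydroxylase, was at 23.5 and 37.4 FPKM in control, 22.0 with heme, and 21.1 and 23.7 after induction. In each, control replicate 2 was the single high library. Hilpda, a lipid droplet protein, went the other way, at 11.3 and 7.75 FPKM in control, 9.22 with heme, and 9.56 and 8.44 after induction, and so did Arnt, the partner subunit of the hypoxia-inducible factors, at 9.29 and 7.19 FPKM in the controls.

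Examples from these lists follow, none of which passed. Got1, cytosolic aspartate aminotransferase of the malate-aspartate shuttle, was at 33.9 and 35.5 FPKM in control, 23.1 with heme, and 25.4 and 22.3 after induction, without overlap of control with either treatment. Its log2 fold changes were -0.57 ± 0.13 with heme and -0.52 ± 0.11 (SE) after induction, with adjusted p of 0.928 and 0.935 in limma. Pgls, an early pentose phosphate enzyme, was at 17.4 and 16.4 FPKM in control, 33.2 with heme, and 18.8 and 24.7 after induction (0.93 ± 0.20 with heme, adjusted p = 0.787 in limma). Pfkfb3, which makes the activator of phosphofructokinase, was at 8.40 and 6.48 FPKM in control, 8.51 with heme, and 11.5 and 11.3 after induction, with a log2 fold change of 0.56 ± 0.18 after induction. Pfkfb4, a related enzyme, had a larger value after induction, 1.12 ± 0.61, from levels of 2.44 and 0.234 FPKM in control, with control replicate 2 the single low library, and 3.85 and 3.15 after induction.

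Many glycolysis promoters are known targets of the hypoxia-inducible factors, whose core motif is ACGTG or GCGTG. The 250 bases before the RefSeq start (GRCm38.p6) were searched for these letters on both strands, which read CACGT and CACGC on the other strand and can overlap one another. A match was found for 14 of 17 glycolysis genes (82.4%), 3 of 4 genes of pyruvate entry, 5 of 11 TCA cycle genes (45.5%), 58.1% of 6159 promoters of genes named in the table, and 38.6% of all 32851 promoters. Of the members, Idh3a had no promoter entry matched. Of the glycolysis genes, Gpi1, Tpi1 and Pkm had no match, and their controls differed 1.46-, 1.36- and 1.26-fold. A match is a description of letters, not a binding site.

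The promoters of the genes with the widest gap between the controls, Pfkl and Pdk1, are printed with those of Pgk1 and Hk2, 2 genes with a pair of matches each, and with that of Dlst, a TCA cycle gene without a match. Capitals mark the motif on either strand, and each sequence runs 5′ to 3′ on the strand of its gene. They lie at chr10:78009808-78010057 (Pfkl, minus strand), chr2:71872974-71873223 (Pdk1, plus strand), chrX:106186850-106187099 (Pgk1, plus strand), chr6:82774455-82774704 (Hk2, minus strand) and chr12:85110583-85110832 (Dlst, plus strand).
Pfkl promoter: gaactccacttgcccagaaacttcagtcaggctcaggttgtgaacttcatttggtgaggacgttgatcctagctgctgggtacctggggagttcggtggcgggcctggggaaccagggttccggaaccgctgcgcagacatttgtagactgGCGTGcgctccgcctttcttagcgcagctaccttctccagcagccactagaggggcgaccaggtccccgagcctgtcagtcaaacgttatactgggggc
Pdk1 promoter: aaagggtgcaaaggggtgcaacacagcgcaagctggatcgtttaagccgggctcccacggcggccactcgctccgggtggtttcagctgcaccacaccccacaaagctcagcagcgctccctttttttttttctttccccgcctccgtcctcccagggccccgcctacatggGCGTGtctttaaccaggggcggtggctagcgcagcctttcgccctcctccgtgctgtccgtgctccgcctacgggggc
Pgk1 promoter: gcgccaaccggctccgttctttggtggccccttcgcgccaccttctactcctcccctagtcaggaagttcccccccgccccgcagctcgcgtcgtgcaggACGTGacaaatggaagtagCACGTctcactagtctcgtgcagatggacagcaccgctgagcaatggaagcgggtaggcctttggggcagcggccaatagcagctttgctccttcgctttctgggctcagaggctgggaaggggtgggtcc
Hk2 promoter: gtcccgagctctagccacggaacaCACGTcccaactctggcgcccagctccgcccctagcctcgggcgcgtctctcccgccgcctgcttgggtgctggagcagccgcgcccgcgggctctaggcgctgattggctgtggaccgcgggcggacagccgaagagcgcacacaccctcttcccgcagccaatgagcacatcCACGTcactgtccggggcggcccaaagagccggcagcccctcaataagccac
Dlst promoter: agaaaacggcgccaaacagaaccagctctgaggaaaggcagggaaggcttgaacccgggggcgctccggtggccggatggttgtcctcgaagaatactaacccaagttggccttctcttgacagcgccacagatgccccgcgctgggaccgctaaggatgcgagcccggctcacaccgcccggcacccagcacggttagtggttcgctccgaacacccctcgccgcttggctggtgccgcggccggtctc
Of these 5 genes, the 4 with a match differed between the controls by 1.84-fold (Pfkl), 2.04-fold (Pdk1), 1.44-fold (Pgk1) and 1.41-fold (Hk2), and Dlst by 1.15-fold. They were picked for print with these values known, and whether the gap goes with the motif over all members was not tested. Hk1, Ogdh, Pdha1 and Suclg1 have 3 matches each, and their control replicate 2 was 1.02, 1.05, 0.955 and 0.896 times control replicate 1. Pfkp and Pgam1 also have 3 matches each, with ratios of 1.47 and 1.43. Slc16a1 has 4 matches and a ratio of 1.21.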

How the data were processed

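Total RNA of 6 samples was sequenced after preparation with the Illumina TruSeq kit, per the labels' protocols. HISAT2, StringTie and edgeR were used on GRCm38 (mm10), per the submitters' processing notes, with versions not given in the sources used here. The authors deposited FPKM and coverage (a mean signal per base) for each of 15113 assembled transcripts. They also deposited, per the file headers, tables of log2 fold changes, p-values and likelihood ratio scores per transcript. The rule that chose the listed transcripts is not given.

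Here FPKM was summed over the listed transcripts of each StringTie locus and tested as log2(FPKM + 1) with limma (version 3.58.1, R 4.3.3; functions lmFit, contrasts.fit and eBayes with trend), two-sided. Loci needed at least 1 FPKM in at least 2 of the 5 libraries, and 7039 did, all 33 members among them. P-values were adjusted by Benjamini-Hochberg over all of them, with a threshold of 0.05. Fold changes on this scale understate changes of low genes. The fit left 2 residual degrees of freedom, and p-values measure only the spread between these libraries. Read counts per gene were not used here, so no counting interval is given; depth came from the ratio of coverage to FPKM. The labels give no batch or date. All 5 values are printed for members with a mean of at least 50 FPKM, with controls that differ at least 1.5-fold, or among the 10 largest fold changes of a comparison, and for Hk2. Of other lists, up to 4 genes with the largest changes could be named; Pgd, Bnip3, P4ha2, Hilpda, Arnt, Hmox1 and the markers were named after their values were seen. A further marker list is not reported here. The members, lists and comparisons were chosen with earlier results of these data known. The fit was also run on simulated data, with known changes put into the induction libraries only. Those changes were larger than nearly all member fold changes, so the run does not show whether smaller ones would be called.

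Of 79 Ensembl transcripts at member loci all were found in GENCODE M21, 71 with the same start and end. Alternatives were another pseudocount (0.1), no filter, single transcripts, named rows only, median-ratio scaling, other uses of the heme columns, no trend, a replicate block, each library left out, and, chosen after seeing the data, sums weighted by transcript length and the glycolysis sum without Tpi1.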

Additional observations from a re-analysis of the deposited data

How the results depend on the processing

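No member passed the test in any of the 3 comparisons under any of 14 alternatives. Of 420 values of 30 member fold changes under them, 384 kept their direction and 36 did not. Part of this agreement was fixed in advance. Dropping the filter or the trend cannot change a fold change, nor can leaving out a library of a group outside the comparison. With 1 residual degree of freedom fewer, leaving out any control or induction library gave 0 called loci in each comparison, against 3 (heme), 1 (neural induction) and 4 (heme against neural induction). Called loci in those comparisons, in that order, were 10, 1 and 11 over single transcripts, 1, 0 and 1 with named transcripts only, 207, 51 and 210 with all 6 columns, and 0, 0 and 0 with length-weighted sums. For neural induction they were 0 with a pseudocount of 0.1, 0 with no filter and 27 without the trend.

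Control and induction showed no shared shift by replicate number (correlation of deviations -0.051 over 7039 loci). Whether samples with the same number were prepared together is not given, and the single heme library cannot enter this check. With the replicate block 4, 2 and 6 loci were called, and the heme over induction value turned to -0.065 for Idh3b, -0.058 for Suclg2 and 0.046 for Ldha.

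Without 1 library, the heme value ranged over -0.79 to 0.076 for Pfkl and -0.53 to 0.097 for Slc2a1. The induction value ranged over -2.32 to 0.35 for Ldhb, -1.27 to 0.11 for Idh3b, -0.81 to 0.050 for Pfkl, -0.62 to 0.0089 for Slc2a1 and -0.53 to 0.00078 for Pgk1. The heme over induction value ranged over -0.24 to 2.43 for Ldhb and -0.47 to 0.91 for Idh3b. Without control replicate 1, the median log2 fold change of the members was -0.19 for heme and -0.25 for induction. Over all loci it was -0.0019 and 0.020 there. Without control replicate 2, the members had medians of 0.011 and 0.031, and all loci -0.014 and 0.0068.

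Over single transcripts Dlat turned to 0.0061 with heme and 0.055 with induction, Idh2 to 2.19 with induction and -0.63 for heme over induction, Gapdh to -0.45 and Fh1 to 0.026 for heme over induction. With named transcripts only, Idh2 was 0.72 with induction and -0.63 for heme over induction, Ogdh -1.21 and 1.11, and Fh1 0.026 for heme over induction. With length-weighted sums, Idh2 was 0.015 with induction and -0.016 for heme over induction, and Suclg2 -0.038; with heme Suclg2 was 0.075 there and 3.08 over single transcripts, against 0.36.

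With all 6 columns, or with the mean of the heme columns, the median of all loci in the heme comparison moved to 0.21 and 0.23, and member values moved with it. In the heme comparison Tpi1 turned to 0.026 and 0.049, and Slc2a1 to 0.045 and 0.069. For heme over induction Fh1 turned to 0.18 and 0.21, Ldha to 0.13 and 0.15, Slc16a1 to 0.13 and 0.15, and Dld to 0.17 and 0.19.

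The mitochondrial sum in control replicate 2 over control replicate 1 was 0.999 with named transcripts, 1.02 with scaling and 1.02 with length-weighted sums. With heme over control, 0.987, it was 0.978 with named transcripts. For induction over control, 0.992, it was 1.02 with named transcripts, 0.980 with scaling and 1.01 with length-weighted sums. The glycolysis sum gave between 1.36-fold and 1.4-fold between the controls under these settings and without Tpi1. FPKM gives no counts, so depth sets no stated limit, and low members such as Ldhb and Idh3b rest on short models.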
